A study of Mus musculus with 27 samples.

Results

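The 9 genes described here, Cdx2, Gata3, Gata2, Tfap2c, Tfap2a, Eomes, Elf3, Dlx3 and Hand1, encode transcription factors of the trophectoderm and its trophoblast descendants. They were taken by name from the 55367 genes of the counts, with earlier results of these data known. All 9 were found in the files and passed the filter on low counts in both families of samples described below. Dlx3 in both families, and Gata2 in the siRNA family, passed it through the groups where they were high.

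The series measured polyadenylated RNA of wildtype mouse morulae in pools of 15 to 20 embryos, in 27 libraries of 9 groups, with 3 pools to a group. In the inhibitor family, embryos were cultured from E2.5 (embryonic day) to harvest at E2.75 with Vehicle, with SAHA (500 nM) or TSA (50 nM), which inhibit histone deacetylases, or with A485 (10 uM), which inhibits the catalytic activity of the acetyltransferases p300 and CBP. In the siRNA family, embryos were microinjected at E0.5 and harvested at the same stage. Its groups were siControl, the control, and siP300, siKat6a and siKat6b, named for the acetyltransferase each was directed against. The labels do not state the content of the last group, siComb. The submitters call the pools biological replicates. Whether those of a group were collected and prepared separately is not said. The p-values rest on the spread among pools within groups, estimated over all groups of a fit together. Part of that spread may be technical.

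The trophectoderm is the outer epithelium of the blastocyst and founds the trophoblast of the placenta. It arises from the outer cells of the morula, where apical polarity silences Hippo signalling and lets the coactivators YAP and TAZ work with TEAD4 to switch on Cdx2 and Gata3, while AP-2 factors, among them the product of Tfap2c, act in the same cells on Cdx2 and on junction and polarity genes. Eomes follows in trophoblast stem cells, and Gata2, Dlx3 and Hand1 are best known from later trophoblast, including giant cells and the placental labyrinth.

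Members of the set fell together in several groups, while Gata2, Dlx3 and Hand1 moved the other way in some. The sequences just upstream of 4 of the 9 members are shown. RefSeq (GRCm38.p6) had start sites for 6 of the 9 members, 8 starts in all, and the 250 bases before each were searched. Tfap2c, Dlx3 and Hand1 had none. Each line reads 5′ to 3′ along the gene and stops where the GENCODE annotation begins a UTR. Capitals mark matches on either strand to the TEAD motif GGAATG or the AP-2 motif GCCNNNGGC.
Cdx2 (chr5:147307271-147307499, minus strand): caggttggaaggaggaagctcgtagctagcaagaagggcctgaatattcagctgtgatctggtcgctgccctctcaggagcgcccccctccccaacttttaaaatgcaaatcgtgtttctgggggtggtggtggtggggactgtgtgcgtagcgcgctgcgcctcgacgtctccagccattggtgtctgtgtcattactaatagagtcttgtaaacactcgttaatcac
Gata3 (chr2:9878601-9878850, minus strand): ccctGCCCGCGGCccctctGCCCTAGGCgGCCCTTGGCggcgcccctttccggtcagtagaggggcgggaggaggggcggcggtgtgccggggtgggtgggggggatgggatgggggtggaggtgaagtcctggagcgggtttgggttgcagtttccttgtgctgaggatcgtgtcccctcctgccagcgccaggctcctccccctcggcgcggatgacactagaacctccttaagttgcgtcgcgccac
Gata2, first start (chr6:88193641-88193890, plus strand): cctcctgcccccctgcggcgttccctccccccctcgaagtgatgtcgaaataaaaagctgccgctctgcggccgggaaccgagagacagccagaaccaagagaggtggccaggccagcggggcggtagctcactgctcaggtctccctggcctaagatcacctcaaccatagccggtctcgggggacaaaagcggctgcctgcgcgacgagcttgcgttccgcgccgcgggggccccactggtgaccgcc
Elf3 (chr1:135258569-135258722, minus strand): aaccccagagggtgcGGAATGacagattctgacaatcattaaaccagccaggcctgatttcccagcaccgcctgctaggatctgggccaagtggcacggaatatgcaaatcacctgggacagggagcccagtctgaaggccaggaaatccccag
The Gata3 stretch held 3 AP-2 matches, which began at positions -246, -231 and -221 from the start, and the whole of it lies across an exon of the antisense gene Gm13256. The Elf3 stretch held 1 TEAD match, at position -235. The Cdx2 window had 1 AP-2 match, at position -16, in the 21 bases that GENCODE gives as UTR and that are not printed. The second start of Gata2 had 1 match to each motif in a window that lies wholly in a UTR and is not printed, and the first start had none. The windows of Eomes (1 start) and Tfap2a (2 starts), also not printed, had no match to either motif. No window of the 6 genes matched the GATA motif GATAA, the CDX motif TTTATNG or the TATA box TATAAA. Over the 32851 windows of 250 bases in the RefSeq table, 13.7% held the AP-2 motif, 12.6% the TEAD motif, 22.6% GATAA, 9.81% TTTATNG and 12.4% TATAAA. A match is a string of letters and shows no binding. The matches overlapped no match of another motif.

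In the control embryos the members differed widely in level. Counts were scaled to library size as CPM with edgeR's TMM factors over all 27 libraries and, where genes are set against each other, divided by the kilobases of exon of each gene. In Vehicle, Elf3, an epithelial factor of the ETS family, stood at 227 ± 29.6 CPM per kb (SD, n = 3), and Gata3 came next at 86.9 ± 5.60. Tfap2c held 18.4 ± 3.99 CPM per kb, and Cdx2, Eomes, Hand1 and Tfap2a lay between 2.84 and 6.13 on that scale. Gata2 was low at 0.938 ± 0.315 CPM per kb, and Dlx3 had 0 counts in all 3 Vehicle libraries. The order in siControl was the same by mean, from 117 ± 15.4 for Elf3 to 0.0245 ± 0.0424 for Dlx3, where the only counts were 2 in siControl 3. Vehicle libraries of Hand1 ran from 1.12 to 6.21 CPM per kb and overlapped those of Cdx2, Eomes, Tfap2a and Gata2, so its place in the order is not firm, and Cdx2 and Eomes overlapped in Vehicle but not in siControl.

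**Figure D1:**
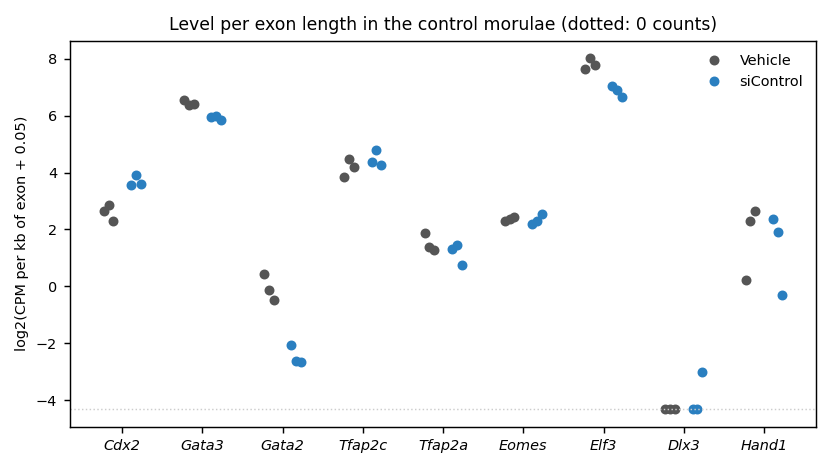
Level of each of the 9 genes in the 3 Vehicle and the 3 siControl libraries, as log2 of CPM per kb of exon plus 0.05; each point is 1 library and the dotted line marks 0 counts. Elf3 and Gata3 are highest in both controls, Gata2 and Dlx3 lowest, and Dlx3 is at 0 counts in 5 of the 6 libraries.

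Libraries held 7557591 to 11988857 counts. Of the genes targeted, Ep300 measured 16.4, 11.2 and 27.8 CPM in siP300 against 22.8, 23.5 and 28.8 in siControl (log2 fold change -0.43 ± 0.29, adjusted p = 0.259), so the library labelled siP300 3 lay within the siControl range for its own target, and each siP300 value below carries that limit. Kat6a measured 13.2, 10.3 and 12.8 CPM in siKat6a against 18.2, 15.7 and 16.4 (adjusted p = 1), and Kat6b 67.0, 78.8 and 75.6 CPM in siKat6b against 101, 111 and 114 (adjusted p = 0.496). Both were lower than in every siControl library without passing the test. In siComb, Kat6a and Kat6b fell (adjusted p = 0.0220 and 0.00815), and Ep300 had adjusted p = 0.722. The pools were labelled as morula blastomeres: the pluripotency list summed to 7761 to 9595 CPM in Vehicle with Sox2 at 0 in every group, and markers of cumulus, oviduct and stromal cells stayed under 10 CPM in sum in every library. Blood markers, in which Hbb-bs was at 0 in every group, summed to under 5 CPM in Vehicle, A485, siControl and siKat6a, to 4.70 to 8.22 in SAHA, to 2.77 to 25.6 in siKat6b and to 27.4 to 124 CPM in TSA, siP300 and siComb. The share of mitochondrially encoded counts was 4.86 to 6.99% in siP300 and siComb and 3.57% or less elsewhere. The MERVL internal sequence, a retroviral RNA of the two-cell stage, stood at 151, 915 and 158 CPM in siP300 and 71.6, 990.2 and 61.8 in siComb against 21.2 to 32.8 in siControl. It stood at 2181 to 4569 CPM with SAHA and 8393 to 9742 with TSA against 12.5, 14.3 and 245 in Vehicle. These differences move with the groups or with single libraries, and their part in the results was not tested.

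The commonest change among the 9 genes was a fall. In the edgeR quasi-likelihood test with Benjamini-Hochberg adjustment over all genes tested, 7 members fell and none rose with SAHA, where 14% of the 18297 genes tested fell and 20.2% rose. With TSA, 6 fell and 1 rose, against 26.6% and 31.6% of all genes. With A485, 7 fell and 2 rose, so that all 9 passed, against 24.2% of all genes that fell and 21.4% that rose. In siP300, 6 fell and 3 rose, where 15.7% of 19180 genes fell and 19.7% rose, and in siComb 6 fell and 2 rose, where 17.1% fell and 19.6% rose. The rises include Dlx3, which passed the low-count filter through TSA, siP300 and siComb, where it was high. In the siRNA family Gata2 likewise passed it through siP300 and siComb. A rise of either gene there is therefore not support apart from the filter. The median log2 fold change of the 9 was -2.03 with SAHA, -1.11 with TSA, -3.47 with A485, -1.06 in siP300 and -1.11 in siComb, while the medians of all genes tested lay between -0.06 and 0.12. Scaling by library size in place of TMM moved the all-gene median from 0.12 to 0.45 in siP300 and from 0.09 to 0.36 in siComb, and the share of called genes that were higher from 55.8 to 77.0% and from 53.5 to 70.4%. No called member changed direction under it. Without the 4 siRNA libraries high in MERVL (siP300 2, siKat6b 1, siKat6b 3 and siComb 2), 8 members were called in siP300 and 9 in siComb. In pools of whole embryos, fewer cells of a kind and less RNA per cell cannot be told apart.

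**Figure D2:**
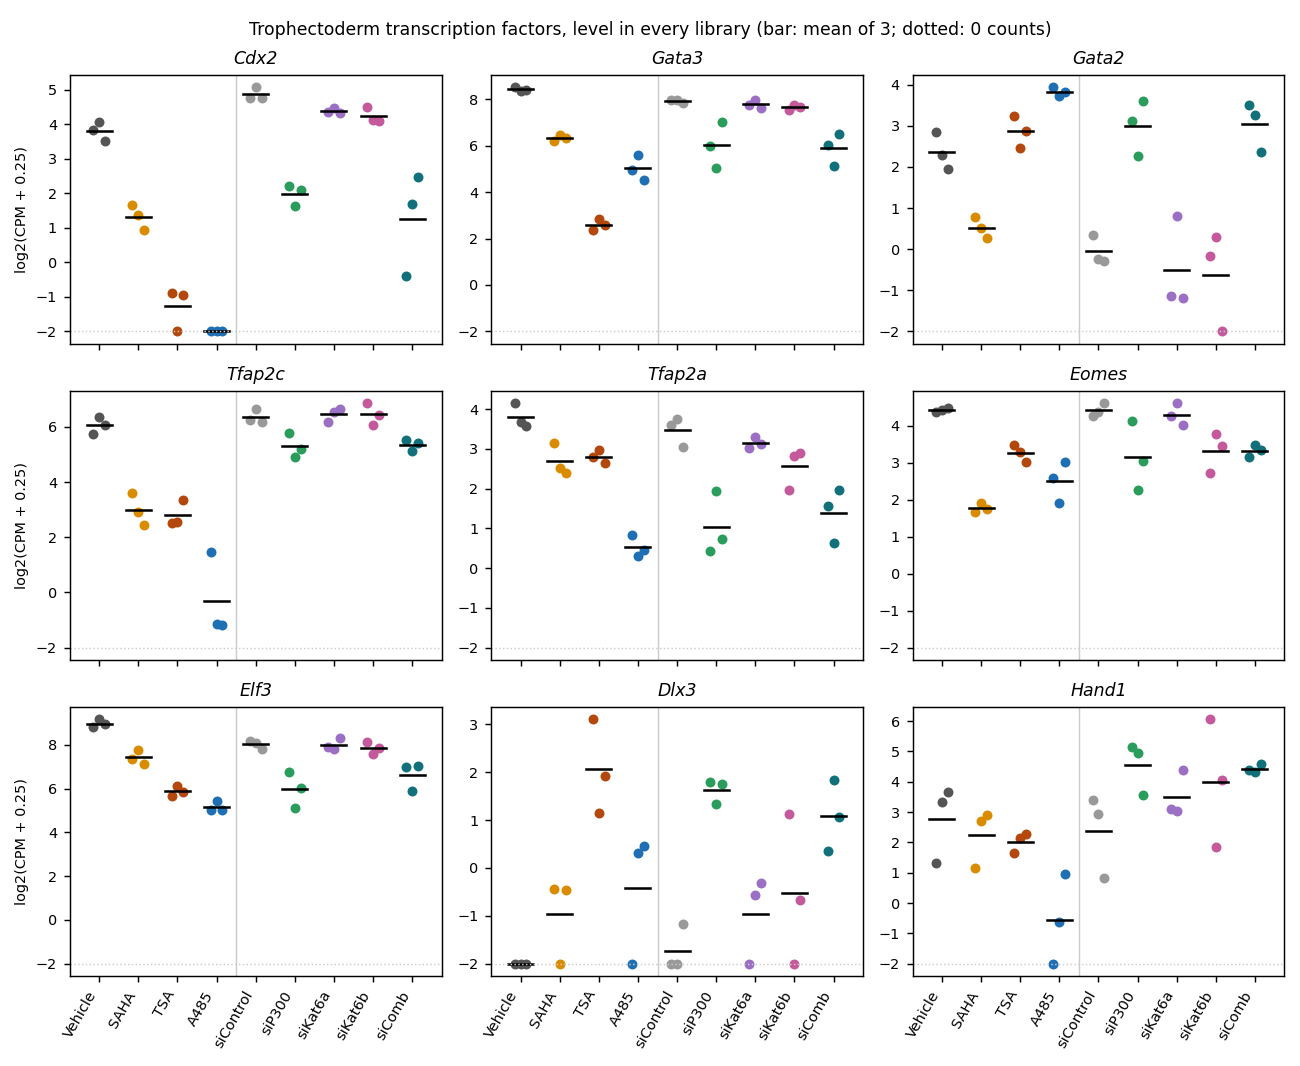
Level of each gene in all 27 libraries, as log2 of CPM plus 0.25; each point is 1 library, bars are means of the 3 libraries on this scale, the dotted line marks 0 counts, and the grey line parts the inhibitor from the siRNA family. Cdx2 is at 0 counts in all 3 A485 libraries, whereas Gata2 is higher in every A485, siP300 and siComb library than in any library of the matching control.

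**Figure D3:**
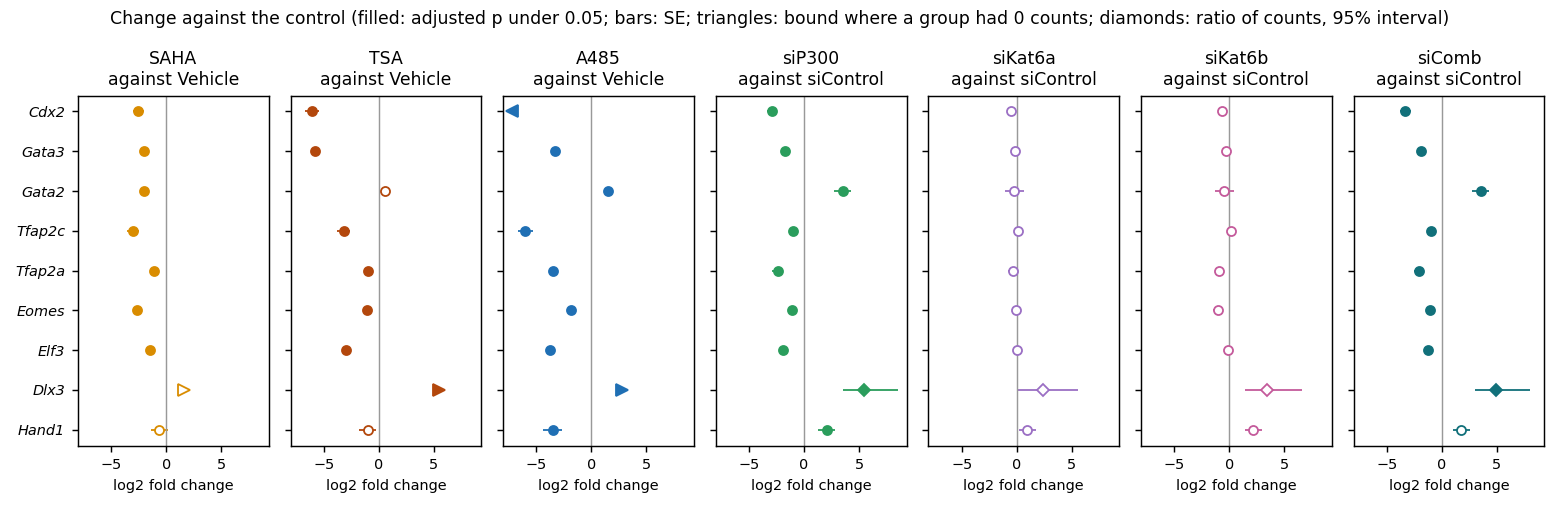
Change of each gene against its own control as log2 fold change, with SE; filled symbols have adjusted p under 0.05, triangles are bounds where 1 group had 0 counts, and diamonds are ratios of counts with 95% intervals. Between 7 and 9 symbols are filled in the panels of SAHA, TSA, A485, siP300 and siComb, and none in those of siKat6a and siKat6b.

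Cdx2, the caudal homeobox factor that holds outer cells in the trophectoderm fate and represses Oct4 there (chr5:147300805-147307270, minus strand, GRCm38), fell in all 3 inhibitor groups. The Vehicle libraries held 14.0, 16.4 and 11.1 CPM and the SAHA libraries 2.94, 2.35 and 1.67. The TSA libraries held 0.288, 0 and 0.274 CPM, from 4 counts in all, and the A485 libraries had no count. The 3 treated groups lay wholly below Vehicle, and A485 and TSA shared values at 0. Cdx2 was 5.79-fold lower with SAHA (log2 fold change -2.53 ± 0.47, adjusted p = 0.00139; here and below ± is the SE) and 66.2-fold lower with TSA (-6.05 ± 0.64, adjusted p = 6.86e-06). With A485, where 3 counts over the group are the limit that 0 counts allow, it was at least 151-fold lower (adjusted p = 2.08e-06). Of the nonzero counts in the libraries 84.5% were even, and if each read of a pair was counted, that limit is too low.

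In the siRNA family, Cdx2 measured 26.8, 33.8 and 27.2 CPM in siControl, 4.40, 2.85 and 4.01 in siP300 and 0.510, 2.97 and 5.29 in siComb. Every siP300 and siComb library lay below every siControl library, and siComb 1 stood lowest of the 6. The gene fell 7.67-fold in siP300 (log2 fold change -2.94 ± 0.45, adjusted p = 0.000158) and 10.02-fold in siComb (-3.32 ± 0.47, adjusted p = 5.36e-05). Without siComb 3 the siComb value was -4.08. The ranking of group means ran from siControl, siKat6a, siKat6b and Vehicle through siP300, siComb and SAHA to TSA and A485. Neighbours overlapped in siKat6a and siKat6b, in siP300, siComb and SAHA, and in TSA and A485.

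Gata3, a zinc finger factor that acts beside Cdx2 downstream of TEAD4 (chr2:9857078-9890034, minus strand), was lowest with TSA and not with A485. It held 371, 329 and 338 CPM in Vehicle and 74.0, 88.3 and 79.4 in SAHA. TSA left 4.90, 6.96 and 5.74 CPM, and A485 31.0, 48.3 and 23.0. These 4 groups did not overlap at any point. The fall was 4.18-fold with SAHA (log2 fold change -2.06 ± 0.22, adjusted p = 1.2e-05), 56.2-fold with TSA (-5.81 ± 0.28, adjusted p = 6.01e-09) and 9.91-fold with A485 (-3.31 ± 0.24, adjusted p = 1.15e-07).

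The siControl libraries of Gata3 held 249, 252 and 231 CPM. In siP300 they held 63.2, 32.4 and 128, and in siComb 66.0, 34.9 and 89.1. Both groups lay below siControl with a wide spread, and the highest value was that of the library labelled siP300 3. Gata3 fell 3.26-fold in siP300 (log2 fold change -1.71 ± 0.35, adjusted p = 0.00161) and 3.86-fold in siComb (-1.95 ± 0.36, adjusted p = 0.000522). Without siP300 3 the siP300 value was -2.31 (adjusted p = 0.000188, against 1.59e-14 to 0.0119 over the 19 alternatives). The antisense gene Gm13256, which shares 155 exon bases with Gata3, held 53.8 ± 5.23 CPM in Vehicle and 0.365 ± 0.632 CPM in TSA, and since the strand setting of the counting is not given in the sources used here, reads of the shared bases cannot be told apart.

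Tfap2c, which encodes AP-2 gamma, a factor that acts on Cdx2 and on polarity genes in the morula (chr2:172549593-172558622, plus strand), fell in all 5 groups in which members were called, furthest with A485. Vehicle libraries held 53.3, 82.6 and 67.1 CPM, SAHA libraries 11.99, 7.25 and 5.24 and TSA libraries 5.48, 5.57 and 9.85. A485 libraries held 2.53, 0.197 and 0.187 CPM, where the first came from 30 counts and the other 2 from 2 counts each. No treated library reached the lowest Vehicle library. The fall was 8.07-fold with SAHA (log2 fold change -3.01 ± 0.54, adjusted p = 0.000752), 9.26-fold with TSA (-3.21 ± 0.55, adjusted p = 0.000203) and 64.3-fold with A485 (-6.01 ± 0.66, adjusted p = 5.74e-06). Without A485 1 the last value was -8.25.

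Among the injected embryos Tfap2c measured 76.8, 101 and 71.4 CPM in siControl, 55.4, 29.5 and 36.3 in siP300 and 45.6, 34.3 and 42.0 in siComb. The loss was modest beside that with the inhibitors but the groups did not overlap. It was 2.03-fold in siP300 (log2 fold change -1.02 ± 0.25, adjusted p = 0.00471) and 2.05-fold in siComb (-1.03 ± 0.25, adjusted p = 0.00391).

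Its paralog Tfap2a, for AP-2 alpha (chr13:40715302-40738376, minus strand), started lower and fell most with A485. It measured 17.6, 12.4 and 11.8 CPM in Vehicle, 8.56, 5.48 and 5.01 in SAHA and 6.63, 7.52 and 6.02 in TSA. A485 left 1.52, 0.985 and 1.12 CPM, below every other library of the family. SAHA and TSA overlapped each other and lay below Vehicle. The A485 fall was 11.1-fold (log2 fold change -3.47 ± 0.36, adjusted p = 3.83e-06), and the others were 2.13-fold with SAHA (-1.09 ± 0.32, adjusted p = 0.0166) and 1.98-fold with TSA (-0.98 ± 0.32, adjusted p = 0.0170). The SAHA call was lost without Vehicle 1, SAHA 2 or SAHA 3 (adjusted p = 0.0912, 0.0669 and 0.0781) and with no filter on low counts (0.0572), within 0.00393 to 0.0912 over 18 alternatives. The TSA call was lost without Vehicle 1 or TSA 3 (adjusted p = 0.0876 and 0.0549), within 0.00970 to 0.0876.

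Tfap2a in the siRNA family went from 11.9, 13.1 and 8.04 CPM in siControl to 1.10, 3.61 and 1.42 in siP300 and 2.72, 1.30 and 3.65 in siComb. Both groups lay below siControl and overlapped each other. It fell 5.33-fold in siP300 (log2 fold change -2.42 ± 0.48, adjusted p = 0.00108) and 4.29-fold in siComb (-2.10 ± 0.47, adjusted p = 0.00232). Without siP300 2 the siP300 value was -3.08. The antisense genes Gm47061, Gm26688 and Gm47067 share 265, 380 and 73 exon bases with Tfap2a. Gm26688 went from 6.0 ± 1.01 CPM in Vehicle to 0.194 ± 0.197 CPM in A485 (-4.87 ± 0.82, adjusted p = 0.000259). By edgeR it also fell with SAHA (-2.02 ± 0.67, adjusted p = 0.0323) and TSA (-5.75 ± 0.95, adjusted p = 0.000141). It fell in siComb (-4.44 ± 1.16, adjusted p = 0.00673) and did not pass in siP300 (adjusted p = 0.103). Gm47061 fell with A485 (-2.69 ± 0.70, adjusted p = 0.00629) and in siComb (-3.34 ± 0.89, adjusted p = 0.00765), and did not pass with SAHA, TSA or in siP300.

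Eomes, a T-box factor needed in trophoblast stem cells (chr9:118478212-118486132, plus strand), was lowest with SAHA. Vehicle libraries held 20.4, 21.5 and 22.2 CPM and SAHA libraries 2.94, 3.53 and 3.10. TSA libraries held 10.96, 9.47 and 7.93 CPM and A485 libraries 5.73, 3.55 and 7.86. Each of the 4 groups occupied its own range, with A485 3 just under TSA 3. Eomes fell 6.49-fold with SAHA (log2 fold change -2.70 ± 0.32, adjusted p = 2.25e-05), 2.16-fold with TSA (-1.11 ± 0.29, adjusted p = 0.00517) and 3.64-fold with A485 (-1.87 ± 0.30, adjusted p = 0.000177).

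The Eomes values were 19.0, 20.5 and 24.1 CPM in siControl, 17.4, 4.57 and 8.01 in siP300 and 8.67, 10.95 and 9.86 in siComb. In siP300 the first library came near the siControl range and the other 2 did not, whereas the 3 siComb libraries lay close together. Eomes fell 2.09-fold in siP300 (log2 fold change -1.06 ± 0.38, adjusted p = 0.0394) and 2.16-fold in siComb (-1.11 ± 0.38, adjusted p = 0.0318). The antisense gene Gm33460, which shares 118 exon bases with Eomes, measured 11.1 ± 2.76 CPM in siControl and 5.09 ± 5.08 CPM in siP300 (-1.10 ± 0.54, adjusted p = 0.1197). By edgeR it fell with SAHA (-2.17 ± 0.65, adjusted p = 0.0182) and with TSA (-1.90 ± 0.65, adjusted p = 0.0214). With A485 and in siComb it did not pass (adjusted p = 0.116 and 0.0508). The siP300 call of Eomes was lost without any 1 siControl library, without siP300 2 and without siP300 3, as well as in 4 other settings (0.00150 to 0.145 over 19 alternatives), and without siP300 1 its value was -1.75. The siComb call was lost without any 1 siControl library, without siComb 1, without siComb 3 and with library size scaling (0.00296 to 0.0966).

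Elf3 (chr1:135253575-135258568, minus strand) was the most abundant member per kb in both controls and fell in each of the 5 groups. It measured 449, 577 and 487 CPM in Vehicle, 165, 215 and 141 in SAHA, 50.5, 70.2 and 57.7 in TSA and 31.9, 43.3 and 32.2 in A485. These ranges ran downward in that order without overlap. The fall was 2.82-fold with SAHA (log2 fold change -1.498 ± 0.20, adjusted p = 5.65e-05), 8.10-fold with TSA (-3.02 ± 0.21, adjusted p = 7.27e-08) and 13.8-fold with A485 (-3.78 ± 0.21, adjusted p = 1.4e-08).

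Elf3 held 289.8, 268 and 223 CPM in siControl, 107, 34.2 and 65.8 in siP300 and 125, 59.6 and 132 in siComb. Library 2 was the lowest in both of the latter groups, and all 6 lay below siControl. It fell 3.73-fold in siP300 (log2 fold change -1.90 ± 0.33, adjusted p = 0.00046) and 2.47-fold in siComb (-1.30 ± 0.33, adjusted p = 0.00550). The antisense gene Gm26642 shares 162 exon bases with Elf3. It held 564 ± 48.2 CPM in Vehicle, 189 ± 34.1 CPM in SAHA, 68.5 ± 7.38 CPM in TSA and 60.3 ± 9.59 CPM in A485, and it fell in siP300 (-1.80 ± 0.31, adjusted p = 0.000403) and siComb (-1.20 ± 0.31, adjusted p = 0.00597). Reads of the shared bases cannot be assigned to either strand here.

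Gata2, the zinc finger partner of Gata3 in trophoblast (chr6:88193891-88207032, plus strand), fell like Gata3 with SAHA and rose with A485, where Gata3 fell. Vehicle libraries held 6.94, 4.61 and 3.63 CPM and SAHA libraries 1.47, 1.18 and 0.953. TSA libraries held 9.23, 5.29 and 7.11 CPM and A485 libraries 15.2, 13.0 and 13.9. SAHA lay below Vehicle, A485 above it, and TSA overlapped it. Gata2 fell 4.08-fold with SAHA (log2 fold change -2.03 ± 0.38, adjusted p = 0.000961) and rose 2.83-fold with A485 (1.499 ± 0.33, adjusted p = 0.00211), and the TSA value did not pass (0.57 ± 0.34, adjusted p = 0.158).

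In siControl Gata2 was near the limit of detection, at 1.02, 0.597 and 0.574 CPM from 22 counts in all. The siP300 libraries held 8.45, 4.57 and 11.9 CPM and the siComb libraries 11.05, 9.28 and 4.93. All 6 lay above every siControl library, and the highest was the library labelled siP300 3. Gata2 rose 11.3-fold in siP300 (log2 fold change 3.5 ± 0.79, adjusted p = 0.00291) and 11.4-fold in siComb (3.51 ± 0.79, adjusted p = 0.00252). These folds are against a siControl that lay wholly below the Vehicle range of 3.63 to 6.94 CPM. The libraries siP300 2 and siComb 3 lay within that Vehicle range. Per kb of exon, the siP300 mean of 1.54 CPM was still below the 18.7 CPM of Gata3 in the same libraries.

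Dlx3, a distal-less homeobox factor of the placental labyrinth (chr11:95120119-95125296, plus strand), had no counts in Vehicle and appeared in treated groups. The SAHA libraries held 4, 0 and 4 counts, the TSA libraries 58, 14 and 26, and the A485 libraries 0, 10 and 12. All 3 TSA libraries had counts, while 1 SAHA and 1 A485 library had none and so overlapped Vehicle. On the CPM scale TSA held 8.36, 1.95 and 3.56. Against the limit of 3 counts over the Vehicle group, Dlx3 was at least 44.9-fold higher with TSA (adjusted p = 0.00133) and at least 6.82-fold higher with A485 (adjusted p = 0.0282). The A485 call was lost without any 1 Vehicle library, without A485 2 and without A485 3 (0.000628 to 0.0727 over 15 alternatives). SAHA did not pass in edgeR (adjusted p = 0.108) but did with DESeq2 and with no filter on low counts (adjusted p = 0.0373 and 0.0235, within 0.0235 to 0.217 over its alternatives).

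The siControl libraries of Dlx3 had 0, 0 and 2 counts. The siP300 libraries had 38, 24 and 48, and the siComb libraries 12, 36 and 20. No siP300 or siComb library reached down to siControl. The ratio of CPM to siControl was 44.1 (95% interval 11.9 to 368) in siP300 (adjusted p = 0.00683) and 30.7 (95% interval 8.19 to 259) in siComb (adjusted p = 0.0113), and the intervals cover counting error only. The control side of both ratios was 2 counts, both in siControl 3, and if each read of a pair was counted these could be 1 fragment and the intervals too narrow. Without that library both calls held (adjusted p = 0.0123 and 0.0157, within 3.25e-05 to 0.0350 and 0.000171 to 0.0494 over their alternatives).

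Hand1, a basic helix-loop-helix factor that drives giant cell formation (chr11:57828705-57832818, minus strand), varied widely between replicates. Vehicle libraries held 2.25, 9.83 and 12.4 CPM, SAHA libraries 1.96, 6.27 and 7.27 and TSA libraries 2.88, 4.18 and 4.65. A485 libraries held 0, 0.394 and 1.69 CPM. Library 1 was the lowest of its group in all 4, and only A485 lay wholly below Vehicle. Hand1 fell 11.5-fold with A485 (log2 fold change -3.52 ± 0.88, adjusted p = 0.00475). The value was -2.84 without A485 1 and -5.32 without A485 3. SAHA and TSA did not pass (log2 fold change -0.62 ± 0.75, adjusted p = 0.561 and -0.99 ± 0.77, adjusted p = 0.285).

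In the siRNA family Hand1 went the other way. It measured 10.2, 7.36 and 1.53 CPM in siControl, 35.0, 30.8 and 11.6 in siP300 and 20.7, 19.7 and 23.7 in siComb. The 6 libraries lay above siControl, though siP300 3 was only just above siControl 1. Hand1 rose 4.14-fold in siP300 (log2 fold change 2.05 ± 0.77, adjusted p = 0.0480). This call was lost without any 1 siControl library, without siP300 1, without siP300 2, with DESeq2, with limma-voom and in a fit of all 27 libraries (7.54e-10 to 0.163 over 19 alternatives). In siComb Hand1 did not pass (log2 fold change 1.75 ± 0.77, adjusted p = 0.0837), and it did pass in 4 of 19 alternatives (8.55e-08 to 0.252).

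No member was called in siKat6a or siKat6b. In siKat6a none of the 9 passed in edgeR, DESeq2 or limma-voom, none had an unadjusted p under 0.05, and 0% of all genes were called higher and 0% lower by edgeR, where 410 genes had an unadjusted p under 0.05, DESeq2 called 2 and limma-voom 0. In siKat6b, 0.0104% of all genes were higher and 0.0104% lower, 0 members were called by any of the 3 tools, and 3 had an unadjusted p under 0.05. Those 3 were Eomes, Dlx3 and Hand1. Eomes held 6.397, 13.5 and 10.6 CPM in siKat6b (log2 fold change -1.06 ± 0.38, adjusted p = 0.320). Hand1 held 66.7, 3.32 and 16.4 CPM, so that siKat6b 1 stood far above the other 2 (log2 fold change 2.17 ± 0.78, adjusted p = 0.315). Dlx3 had 18, 0 and 4 counts there, a ratio to siControl of 11.04 (95% interval 2.72 to 96.9), and in siKat6a 0, 4 and 6 counts, a ratio of 5.08 (95% interval 1.08 to 47.7). The libraries siKat6b 1 and siKat6b 3 also held 899 and 946 CPM of the retroviral MERVL internal sequence, against 35.0 in siKat6b 2, and without them and the 2 other siRNA libraries high in that sequence the siKat6b value was -0.93 for Hand1. The part of that sequence in these values was not tested. Cdx2 held 20.3, 22.1 and 19.8 CPM in siKat6a and 22.6, 17.2 and 16.9 CPM in siKat6b, with log2 fold changes of -0.49 ± 0.42 and -0.63 ± 0.42. Neither passed in edgeR (adjusted p = 0.660 in siKat6b). Tfap2a held 3.62, 6.83 and 7.21 CPM in siKat6b (log2 fold change -0.90 ± 0.45, adjusted p = 0.505). Gata3 held 213, 253 and 199 CPM in siKat6a and 184, 216 and 205 in siKat6b, Tfap2c 72.4, 92.6 and 100.2 and 117, 66.7 and 86.9, and Elf3 235, 226 and 313 and 279.5, 191 and 234. The log2 fold change of Gata3 in siKat6b was -0.28 ± 0.34 (edgeR, adjusted p = 0.863).

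The inhibitors were also compared with each other; as background, acetyltransferases add the acetyl groups that deacetylases remove. With A485 against SAHA, 6 members were lower and 2 higher, where 31.9% of all genes were lower and 22.5% higher. Gata2 was 11.5-fold higher with A485 (log2 fold change 3.53 ± 0.38, adjusted p = 3.83e-06), and Elf3 4.87-fold lower (-2.28 ± 0.20, adjusted p = 6.48e-07). Tfap2a was 5.19-fold lower (-2.38 ± 0.36, adjusted p = 7.76e-05), Gata3 2.37-fold (-1.25 ± 0.22, adjusted p = 0.000304) and Tfap2c 7.96-fold (-2.99 ± 0.63, adjusted p = 0.00118). Cdx2 was at least 25.3-fold lower (adjusted p = 3.55e-05), and Dlx3 did not pass (adjusted p = 0.453). Hand1 was lower (-2.90 ± 0.88, adjusted p = 0.0121). Eomes was higher with A485 (0.83 ± 0.31, adjusted p = 0.0360), a call lost in 10 of 18 alternatives, counting a setting that also asked for a 2-fold change, among them those without A485 3 and without any 1 SAHA library (0.00776 to 0.175). Without A485 1 the Tfap2c value was -5.26, and the Hand1 value was -2.24 without A485 1 and -4.71 without A485 3. The Hand1 call was lost with limma-voom (adjusted p = 0.0715, within 4.9e-06 to 0.0715 over its alternatives).

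With A485 against TSA, 7 members were lower and 2 higher, where 36.1% of all genes were lower and 27.4% higher. Gata3 turned round in this comparison, 5.67-fold higher with A485 than with TSA (log2 fold change 2.502 ± 0.25, adjusted p = 1.21e-06), as was Gata2 at 1.90-fold (0.93 ± 0.33, adjusted p = 0.0239). Tfap2a was 5.60-fold lower (-2.49 ± 0.36, adjusted p = 3.78e-05), Tfap2c 6.94-fold (-2.80 ± 0.64, adjusted p = 0.00168) and Elf3 1.70-fold (-0.76 ± 0.20, adjusted p = 0.00372). The other calls were less firm. Cdx2, at least 2.04-fold lower with overlapping libraries (adjusted p = 0.0206), lost its call without TSA 1 or TSA 3, with limma-voom and with all counts halved (0.00633 to 0.158 over its alternatives). Eomes was lower (-0.75 ± 0.30, adjusted p = 0.0400) and lost the call in 10 of 18 alternatives, among them those without A485 1, A485 2, TSA 1 or TSA 2 (0.0120 to 0.190). Dlx3 was lower (-2.75 ± 1.07, adjusted p = 0.0390) and lost it in 6 of 16, without any 1 A485 library, without TSA 1 or TSA 3 and in 1 more setting (0.00533 to 0.189). Hand1 was lower (-2.53 ± 0.89, adjusted p = 0.0224) and lost it in 4 of 18, among them those without A485 1, A485 2 or TSA 3 (0.00015 to 0.0827), and without A485 3 its value was -4.32. The Gata2 call was lost in 4 of 18, among them those without TSA 2 or TSA 3 (0.0144 to 0.137). Without A485 1 the Tfap2c value was -5.01. Without TSA 3, 5 of the 9 members were called in place of 9. SAHA and TSA, given at different doses, were not tested against each other here. Their values against the shared Vehicle libraries stand side by side. The log2 fold changes of Cdx2 were -2.53 ± 0.47 and -6.05 ± 0.64, those of Gata3 -2.06 ± 0.22 and -5.81 ± 0.28, and those of Eomes -2.70 ± 0.32 and -1.11 ± 0.29.

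A485 blocks the catalytic activity of p300 and CBP for a short time, and the siP300 injection is directed at p300 from the zygote on, so the difference between the 2 effects was tested in a fit of all 27 libraries. The A485 log2 fold change minus that of siP300 was called negative for 5 members and positive for none. Of 20744 genes, 16.1% were called negative and 10.4% positive. For Cdx2, Gata3, Tfap2c and Elf3 a negative value is a deeper fall with A485. Hand1 fell with A485 and was higher in siP300, though in the fit of all 27 libraries its siP300 rise did not pass (edgeR, adjusted p = 0.0584). The difference for Hand1 was -5.57 ± 1.28 on the log2 scale (adjusted p = 0.00225). Tfap2c differed by -5.005 ± 0.65 (adjusted p = 4.28e-06) and Elf3 by -1.90 ± 0.42 (adjusted p = 0.00170). Without A485 1 the Tfap2c difference was -7.30, and the Hand1 difference was -4.93 without that library and -7.39 without A485 3. Gata3 differed by -1.63 ± 0.46 (adjusted p = 0.0110), a call lost without the library labelled siP300 3 (value -0.98, adjusted p = 0.0754, within 4.61e-06 to 0.0754 over 24 alternatives). Cdx2 was at least 151-fold lower with A485 and 7.80-fold lower by mean CPM in siP300, at least 19.4-fold apart, a bound that takes the siP300 mean without its spread and uses the same limit of 3 counts (adjusted p = 0.000138). Gata2, Tfap2a, Eomes and Dlx3 did not pass in edgeR (adjusted p = 0.0739, 0.185, 0.233 and 0.70). The Gata2 difference did pass in 8 of 24 alternatives, among them DESeq2 and limma-voom (adjusted p = 0.0318 and 0.0386, within 0.0202 to 0.173). The 2 treatments differ in target, since A485 also inhibits CBP, and in duration, start and control, and these cannot be told apart here. Ep300 itself did not pass in siP300 (adjusted p = 0.259, edgeR). Under library size scaling, 25.2% of the genes called for this difference had a positive value, against 39.1% with TMM.

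**Figure D4:**
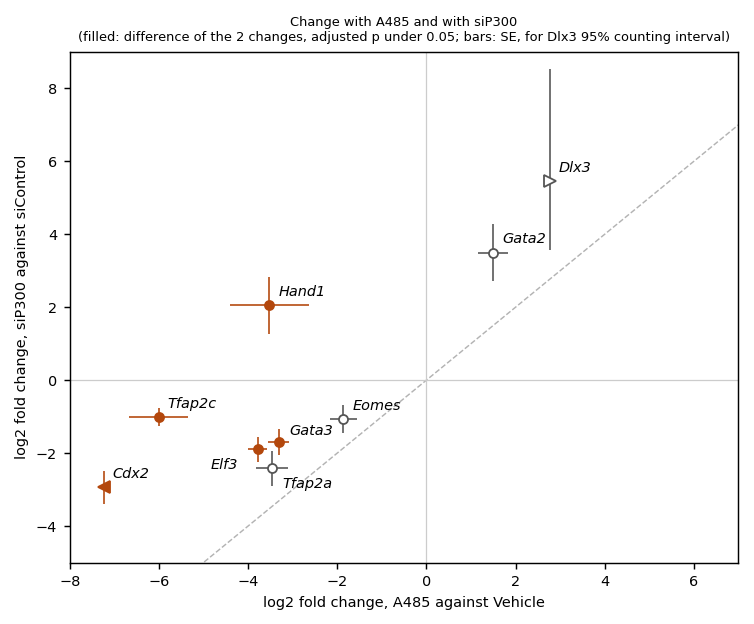
Log2 fold change of each gene with A485 against Vehicle (horizontal) and in siP300 against siControl (vertical), with SE, or a 95% counting interval for Dlx3; triangles are bounds, filled symbols mark an adjusted p under 0.05 for the difference of the effects, and the dashed line marks equal effects. Of the 9 genes, Hand1 alone lies on opposite sides of 0 on the 2 axes, and Tfap2c and Cdx2 lie far to the left of the dashed line.

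The siComb and siP300 groups were not told apart on these genes. None of the 9 was called in siComb against siP300 by edgeR, DESeq2 or limma-voom, 0 had an unadjusted p under 0.05, and 0.516% of all genes were higher and 0.282% lower. The largest difference among members by log2 fold change was in Elf3 (log2 fold change 0.60 ± 0.33, adjusted p = 0.458). A p that misses the threshold does not show that the groups act alike.

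Other genes of the lineage were read from lists, chosen with earlier results of these data known. Of 14 further trophectoderm and trophoblast transcription factors, 2 rose and 7 fell with SAHA, 3 and 7 with TSA, 2 and 7 with A485, 3 and 4 in siP300 and 2 and 4 in siComb, and none was called in siKat6a or siKat6b. Of all genes tested, 20.2% rose and 14% fell with SAHA, 31.6% and 26.6% with TSA, 21.4% and 24.2% with A485, 19.7% and 15.7% in siP300 and 19.6% and 17.1% in siComb, so the counts that rose in siP300 and siComb lie near the shares of all genes. The median log2 fold changes of the list, in that order of the 5 groups, were -0.96, -1.46, -1.70, -0.01 and 0.32. Klf5, a Krüppel-like factor of the early trophectoderm, measured 319 ± 21.0 CPM in Vehicle and 21.7 ± 4.87 CPM in A485 (log2 fold change -3.84 ± 0.21, adjusted p = 1.26e-08). Tead4, the partner of YAP, measured 104 ± 14.3 CPM in Vehicle and 8.02 ± 1.62 CPM in A485 (log2 fold change -3.66 ± 0.27, adjusted p = 1.65e-07), and fell with TSA (-2.62 ± 0.26, adjusted p = 1.52e-06). Id2, an inhibitor of basic helix-loop-helix factors and an early marker of outer cells, fell with A485 (-5.52 ± 0.22, adjusted p = 8.34e-10), in siP300 (-2.23 ± 0.27, adjusted p = 2.16e-05) and in siComb (-2.66 ± 0.28, adjusted p = 2.89e-06). Esx1, a placental homeobox factor, rose with SAHA (6.02 ± 0.46, adjusted p = 7.24e-07), with TSA (6.23 ± 0.46, adjusted p = 1.3e-07) and in siP300 (3.902 ± 0.72, adjusted p = 0.000638).

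Of 20 trophectoderm effectors, the keratins, junction proteins, pumps and transporters of the epithelium, 12 fell and none rose with SAHA, 16 fell and 1 rose with TSA, 11 fell and 2 rose with A485 and in siP300, and 10 fell and 2 rose in siComb. Of all genes tested, 14% fell and 20.2% rose with SAHA, 26.6% and 31.6% with TSA and 24.2% and 21.4% with A485. In siP300 15.7% fell and 19.7% rose, and in siComb 17.1% and 19.6%. Krt8, the keratin of this epithelium, measured 1032 ± 25.2 CPM in Vehicle and 226 ± 64.6 CPM in SAHA (log2 fold change -2.15 ± 0.21, adjusted p = 4.08e-06) and fell with TSA (-3.45 ± 0.22, adjusted p = 3.81e-08). Cldn7, a tight junction claudin, fell with TSA (-2.82 ± 0.15, adjusted p = 1.04e-08) and A485 (-2.75 ± 0.15, adjusted p = 9.32e-09). Cldn6, a claudin of the same kind, rose in siP300 (1.66 ± 0.21, adjusted p = 3.51e-05) and siComb (2.89 ± 0.22, adjusted p = 1.96e-07). Among 16 Hippo and Notch genes tested of 18, none rose and 3 fell with SAHA, 2 rose and 7 fell with TSA, and 5 rose and 6 fell with A485. Of 17 tested in the siRNA family, 3 rose and 4 fell in siP300 and 4 rose and 3 fell in siComb. In the siRNA family these counts lie near the shares of all genes given above, as do the 3 of 16 that fell with SAHA. Amot, an angiomotin that couples polarity to Hippo signalling, fell with SAHA (-1.62 ± 0.24, adjusted p = 0.000141) and in siP300 (-1.91 ± 0.25, adjusted p = 4.35e-05), and Wwtr1, which encodes TAZ, fell with A485 (-1.46 ± 0.21, adjusted p = 6.28e-05) and in siP300 (-1.59 ± 0.22, adjusted p = 6.05e-05). The paralogs of the members, 22 genes, were fewer to pass the filter, with 11 tested in the inhibitor and 16 in the siRNA family. Of those tested, 1 rose and 4 fell with SAHA, 2 and 4 with TSA, none and 3 with A485, 7 and 1 in siP300 and 5 and 2 in siComb, and the 3 that fell with A485 lie near the 24.2% of all genes that did. Gata6, a paralog of Gata2 and Gata3 and a primitive endoderm factor, fell in all 5 groups, from -1.15 ± 0.33 in siP300 to -6.68 ± 0.47 with A485 on the log2 scale.

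Falls were not limited to trophectoderm genes. Of 13 tested genes of the inner cell mass and pluripotency list, 7 fell with SAHA, 10 with TSA, 13 with A485, 6 in siP300 and 7 in siComb, and 1 rose, with TSA. The shares of all genes that fell were 14%, 26.6%, 24.2%, 15.7% and 17.1% in the same order. The two-cell stage list rose in full with SAHA and TSA, 6 of 6, and its summed level reached 2817 to 5707 CPM with SAHA and 11414 to 16503 with TSA against 1.43 to 344 in Vehicle. In siP300 3 of 5 tested rose and in siComb 5 of 5, with medians of 5.26 and 5.95 on the log2 scale and summed levels of 16.5 to 176 and 7.48 to 468 CPM against 2.19 to 3.27 in siControl. With A485 5 of these 6 fell, from a Vehicle level carried by library 3. Whether these shifts in the make-up of the libraries bear on the members was not tested.

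Likeness of pattern was measured over the 9 group means of log2 CPM, each gene centred on its own mean, as the root mean square difference among 8257 named genes of at least 10 CPM. Elf3 had the closest neighbours, Dab2 at 0.14, Arid5b at 0.22 and Pou5f1 at 0.28 log2 units. Tfap2a was nearest to Got1 (0.31), Snrpa1 and Scd1, Tfap2c to Slc5a11 (0.36), Dusp4 and Hpdl, and Eomes to Dock5 (0.41) and Abo. Gata3 lay nearest to Plpp3 (0.47), Nynrin and Zfp395, and Cdx2 to Gdf3 (0.56), Vtcn1 and Serpinb6c. Dlx3 was nearest to Nrip3 (0.57), Flvcr1 and Ero1l, Hand1 to Cdk2ap1 (0.59), Mybpc1 and Fcgr3, and Gata2 to Cd68 (0.68), Cfap410 and Lgals1. Within the set, Elf3 and Tfap2a were the closest pair at 0.63 and Cdx2 and Gata2 the farthest at 3.91. Group means over shared libraries and controls carry these distances, which are descriptions with no test.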

How the data were processed

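Each library is a pool of morulae, and the deposited values are raw read counts per gene. Per the submitters' processing notes, which give no roles, the tools were STAR 2.7.11a, featureCounts (Subread 2.0.6), MultiQC and Scanpy 1.8.2, and the builds mm10 and GRCh38. Which annotation release was counted, with which strand setting, and how pairs of reads were treated is not given in the sources used here. Groups came from the labels. The members and lists were chosen with earlier results of these data known.

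Counts were tested with edgeR 4.0.16 in R 4.3.3: TMM scaling, filterByExpr with a minimum count of 10, a quasi-likelihood fit of the 12 inhibitor or the 15 siRNA libraries (all 27 for the difference of effects), and Benjamini-Hochberg adjustment over all genes with a threshold of 0.05. DESeq2 1.42.0 and limma 3.58.1 (voom) were alternatives. Exon lengths are the union of exons in GENCODE vM21 (GRCm38, the build also called mm10). Intervals are 95% and, like the limit of 3 counts for a group at 0, cover counting error only. From each list, genes were named from up to 3 with the smallest adjusted p in a comparison with a control and groups that did not overlap, and pattern neighbours by the 3 smallest distances, of which 1 is not reported here. The fit was tested on simulated data. Of the 27 pairs of libraries within groups, none was alike within sampling noise (chi-square per degree of freedom 7.61 to 43.6).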

Additional observations from a re-analysis of the deposited data

Results flagged for a closer look

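The effect of A485 (against Vehicle) and that of siP300 (against siControl) differed for 5 of the 9 genes by the test of the difference itself, edgeR's quasi-likelihood test over all 27 libraries with Benjamini-Hochberg adjustment. On the log2 scale the difference was -7.17 for Cdx2, -5.57 for Hand1, -5.005 for Tfap2c, -1.90 for Elf3 and -1.63 for Gata3. The Gata3 call was lost without siP300 3 (adjusted p = 0.0754, edgeR). As given above, the 2 treatments also differ in target, duration, start and control, and Ep300 did not pass in siP300. The Cdx2 value depends on the prior count, since A485 had 0 counts. The bound of at least 19.4-fold does not depend on it, but it uses the limit of 3 counts, which is too low if each read of a pair was counted, and the siP300 mean without its spread.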

How the results depend on the processing

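Of the called gene values, 1077 recomputed values kept their call and direction and 76 lost the call, and none reversed. Of those not called, 645 stayed so with the same direction, 16 passed and 43 reversed. Leaving out 1 library at a time gave 6 to 7 called members with SAHA, 6 to 7 with TSA, 8 to 9 with A485, 7 to 8 in siP300, 0 to 0 in siKat6a, 0 to 0 in siKat6b, 7 to 8 in siComb, 7 to 8 in A485 against SAHA, 5 to 8 in A485 against TSA, 0 to 0 in siComb against siP300 and 4 to 6 for the difference of effects. With no filter on low counts, 2 members were called in siKat6b; the cause was not tested.

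The replicate numbers were not shown to pair the samples: same-numbered libraries had correlations of their deviations from -0.016 to 0.13 with SAHA and from -0.088 to 0.040 in the other comparisons with a control, and at most 2 of 3 treated libraries fitted their own number best. With a replicate block the called members numbered 7 with SAHA, 7 with TSA, 9 with A485, 8 in siP300, 0 in siKat6a, 0 in siKat6b, 8 in siComb, 7 in A485 against SAHA, 8 in A485 against TSA, 0 in siComb against siP300 and 5 for the difference. It ended the calls of Eomes in siP300 (adjusted p = 0.0587, edgeR) and in A485 against SAHA (0.0566) and of Dlx3 in A485 against TSA (0.102).

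Some values that were not called changed sign, and the cause was not tested. Leaving out 1 library at a time, in siKat6a Gata2 ran from -1.84 to 0.242 on the log2 scale, Eomes from -0.282 to 0.0475 and Elf3 from -0.157 to 0.0760, and in siKat6b Gata2 from -1.21 to 0.144 and Tfap2c from -0.109 to 0.291. In siComb against siP300 it gave -1.13 to 0.124 for Cdx2, -0.590 to 0.361 for Gata3, -0.265 to 0.331 for Gata2, -0.167 to 0.303 for Tfap2c, -0.0233 to 1.01 for Tfap2a and -0.362 to 0.640 for Eomes, and for the difference of effects -2.02 to 1.25 for Dlx3. With library size scaling Elf3 in siKat6a was 0.0309. Without the 4 siRNA libraries high in MERVL, siKat6b had 0.416 for Gata2, -0.317 for Tfap2c, -2.75 for Dlx3 and -0.933 for Hand1. In siComb against siP300 Gata2 was -0.0751 with library size scaling, -0.181 with voom, -0.0309 with a 5 CPM filter, -0.210 with the replicate block, -0.00803 with halved counts and -0.345 without the 4 libraries. Tfap2c there was 0.0141 with DESeq2 size factors and with DESeq2, 0.0213 with no filter, 0.00669 with the block and 0.00833 in all 27 libraries, and Eomes was 0.0521 with voom. The difference of effects for Dlx3 was -0.236 with DESeq2, -1.74 with voom and -0.187 with halved counts.

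Genes called in all also moved: in siKat6a from 0 to 2 with DESeq2 and 15 with no filter, in siKat6b from 4 to 237 with DESeq2, 10 with voom, 755 with no filter, 59 in a fit of those groups only, 29 in all 27 libraries and 160 without siKat6b 2, and in siComb against siP300 from 153 to 99 with library size scaling, 613 with DESeq2, 35 with voom, 733 with no filter, 48 with the block, 0 in those groups only and 26 to 79 leaving out 1 library. Depth limits Dlx3, Gata2 in siControl and Cdx2 under A485 and TSA, where libraries held few or no counts.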
